A study of Drosophila melanogaster with 3 samples.

Results

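The 92 protein-coding genes described here carry symbols of cytosolic ribosomal proteins of Drosophila melanogaster. They were chosen by symbol, as RpL or RpS followed by a digit or P, from 13945 protein-coding genes on the 6 chromosome arms of the dm6 annotation. By symbol, 50 of the 92 were assigned to the large subunit and 38 to the small subunit. The other 4 have RpLP symbols, which include the acidic stalk. Genes with -like symbols, such as RpLP0-like, were kept under this rule. Whether their products are part of the ribosome was not checked. The binding data were ChIP-seq peak lists for Combgap, a zinc-finger protein known to bind GTGT elements. The 3 samples were biological replicates of 1 group, whole embryos of mixed sex from the strain cg-GFP, aged 0 to 24 h. This line stably carries GFP joined to the C-terminal end of cg, and an anti-GFP antibody pulled down the chromatin. The labels do not give the promoter of the transgene or whether the native cg gene is intact. With 1 group there was no contrast between conditions, and every embryonic tissue and stage contributed to each value.

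Ribosomal protein genes are active in nearly all cells, and their products must be made in matched amounts for the subunits to assemble. In flies, loss of a single copy of many of these genes gives the Minute phenotype of slow growth and short, thin bristles. Their transcription in flies typically starts within a pyrimidine-rich TCT initiator instead of the common initiator and uses the TBP-related factor Trf2. Some members have a paralogue whose expression is concentrated in the germ line, such as RpS5b, RpS10a, RpS19b and RpL22-like. None of these background statements comes from the present lists.

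A gene was counted as having a peak when a summit lay in the thresholded list (filtered by the irreproducible discovery rate, IDR) and within 1 kb of any annotated start site of the gene. Rank 1 is the summit with the highest signal in a list. The letters around several summits show the element that recurred at many, but not all, of the stronger ones. These are dm6 reference sequences on the strand of the ribosomal protein gene, centred on the longest run of alternating G and T (or A and C) within 100 bp of the summit. The run is in capitals.
RpL17 at chrX:6743788-6743848, minus strand: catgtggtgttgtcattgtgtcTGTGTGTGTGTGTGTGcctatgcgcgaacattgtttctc
RpL7A at chrX:6532812-6532872, minus strand: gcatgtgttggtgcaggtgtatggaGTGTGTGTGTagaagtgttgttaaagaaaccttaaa
RpS5a at chrX:17147988-17148017, minus strand: gagtgcaacTGTGTGTGTGcgtcacacgtg
RpS19a at chrX:16638094-16638123, plus strand: gtgcccgtgcaTGTGTGTGTGcgagggaga
RpL28 at chr3L:3223585-3223645, minus strand: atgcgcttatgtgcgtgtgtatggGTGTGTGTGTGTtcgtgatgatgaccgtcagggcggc
RpS28a at chr3R:30021964-30021993, minus strand: cgctgtgcGTGTGTGTGTGTGcagcggcgg
RpS28-like at chr2L:9437572-9437601, plus strand: tgtgtttgcGTGTGTGTGTGTGcgtcgtgg
The runs in these windows measured 16 bases at RpL17, 13 at RpS28a and RpS28-like, 12 at RpL28 and 10 at RpL7A, RpS5a and RpS19a. The windows of RpL17 and RpL7A lie in introns of those genes, with part of the RpL17 window in the snoRNA that its intron encodes, and those of RpS5a and RpS19a in their own 5′ UTRs. The other 3 windows lie in neighbouring genes, namely in an intron of eIF1 at RpL28 and in the 5′ UTRs of Mgat2 at RpS28a and of numb at RpS28-like. Long runs not shown lay near other summits. They measured 12 bases at RpS19a (rank 89), 11 at RpS14b (rank 428) and 14 at RpL19 (rank 2364). The RpS19a window above is from its summit of rank 2289. Some other summits had only shorter runs, such as 5 bases at RpL3 (rank 1699) and at RpS12 (rank 1891). For contrast, 4 summits of lower rank, from 5745 to 7514, are shown, centred on the summit. The RpS14b window is from its summit of rank 7158. Capitals mark TATCGATA, the DRE element bound by the factor Dref, which was sought on both strands.
RpS10b at chrX:19597915-19597975, plus strand: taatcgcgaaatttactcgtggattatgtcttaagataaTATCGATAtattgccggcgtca
RpS14b at chrX:7934802-7934862, plus strand: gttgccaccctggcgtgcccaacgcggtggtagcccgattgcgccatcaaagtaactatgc
RpS28b at chrX:9554829-9554889, plus strand: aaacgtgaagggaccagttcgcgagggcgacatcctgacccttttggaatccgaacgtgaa
RpL14 at chr3L:8601016-8601076, plus strand: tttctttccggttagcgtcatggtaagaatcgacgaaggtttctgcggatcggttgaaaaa
The RpS10b, RpS14b and RpS28b windows hold no GTGTGT, nor does that of RpL14. The longest runs within 100 bp of these 4 summits were 4 or 5 bases. The windows shown do not stand for all summits of that range. RpS13 (rank 6672) and RpLP0-like (rank 7011) had GTGTGT within 100 bp, while RpL19 (rank 6417) and RpS28-like (rank 7454) did not.

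Peaks were present at 21 of the 92 genes (22.8%), against 22.9% of all protein-coding genes, so the share as a whole lay at the background. The small subunit had peaks at 13 of 38 genes (34.2%), the large subunit at 7 of 50 (14.0%) and the RpLP genes at 1 of 4, RpLP0-like. The 21 genes held 29 summits in 24 peak intervals, and neighbouring summits in 1 interval are not independent. Mitochondrial ribosomal protein genes, a group of like size, had peaks at 17 of 73 (23.3%). No set test was made on these counts.

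The genes with a peak were unevenly spread over the chromosomes. On the X chromosome 9 of 14 members had a peak (64.3%), against 30.1% of all protein-coding genes of X. On the autosomes 12 of 78 had one (15.4%), against 21.5% of autosomal genes. The X members with a peak were RpL7A, RpL17, RpL36, RpS5a, RpS10b, RpS14b, RpS15Aa, RpS19a and RpS28b, and those without were RpL22, RpL35, RpL37-1, RpS6 and RpS14a. Of the small subunit, 6 of 8 members on X and 7 of 30 on autosomes had a peak. For the large subunit these counts were 3 of 6 and 4 of 44. When only the 5000 highest peaks of each replicate list were used and a gene needed a summit in all 3, 6 of 14 members met this on X (42.9%, against 22.9% of X genes) and 7 of 78 on autosomes (8.97%, against 15.9%). Over all chromosomes this rule held for 13 of 92 members (14.1%), against 17.0% of all genes, and the count was 13 whichever replicate was left out.

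Features other than binding also differed between the members on X and the rest. A GT run of 10 bases or more lay within 1 kb of a start at 6 of 14 X members (42.9%) and 9 of 78 autosomal members (11.5%), against 26.5% and 15.6% of all genes of X and the autosomes. At least 2 annotated starts were present in 64.3% of X members and 44.9% of autosomal members, against 31.1% and 25.7% of all genes. The part of these features in the count on X was not tested.

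**Figure D1:**
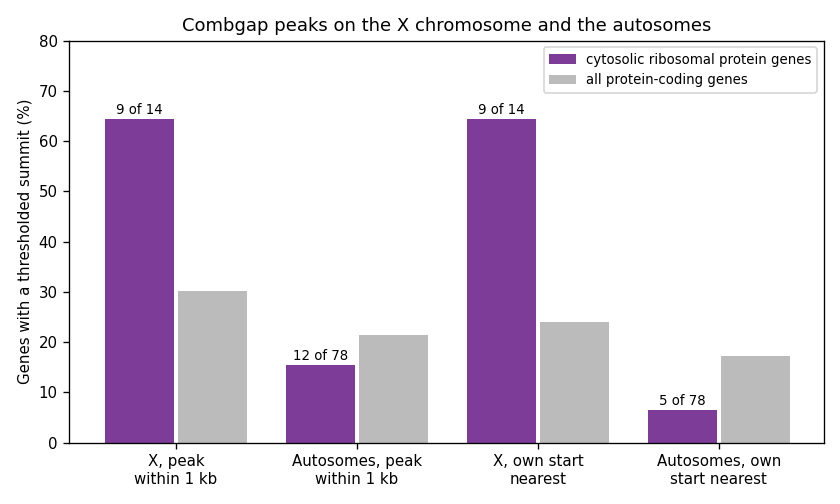
Bars give the percentage of genes with a thresholded Combgap summit within 1 kb of a start (left pairs) and of genes whose own start is the nearest coding start to such a summit (right pairs), for cytosolic ribosomal protein genes and all protein-coding genes. Both counts were 9 of 14 on X, while on the autosomes 12 of 78 genes had a peak and 5 of 78 had their own start nearest.

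Each summit was also assigned to the coding start nearest to it. Another coding gene started within 1 kb of 58 of the 92 members (63.0%), against 42.9% of all coding genes, so a summit can be counted for a ribosomal protein gene while lying nearer to its neighbour. Another coding start lay within 1 kb of 21 of the 29 summits (72.4%). Among all start-site summits, 26.6% had 2 or more coding genes within 1 kb. Of the 29 summits, 17 lay nearest to the start of the ribosomal protein gene and 12 nearer to another coding start. At 14 members (15.2%) the own start was the nearest coding start to at least 1 summit, against 18.3% of all protein-coding genes. These 14 were all 9 X members with a peak, and 5 of 78 autosomal members (6.41%, against 17.3% of autosomal genes). Among genes with a peak and another coding start within 1 kb, the own start was nearest at 11 of 18 members (61.1%) and 64.5% of all such genes. In the mitochondrial group the own start was nearest at 3 of 73 genes (4.11%), and 82.2% of that group had another coding start within 1 kb.

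The summits nearest to an own start were all within 500 bp of it, and the 8 summits beyond 500 bp all lay nearer to another gene. The 29 summits fell upstream of the start in 14 cases and downstream in 15. By annotation 13 lay in a 5′ UTR, 7 in an intron, 7 between genes, 1 in a coding exon (RpS28b) and 1 in a noncoding exon. The last is a summit of RpL17, inside a snoRNA encoded in its intron. Just inside the distance limit stood RpS14b, with a summit 980 bp from a start, and just outside stood RpL13A, with one at 1027 bp.

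**Figure D2:**
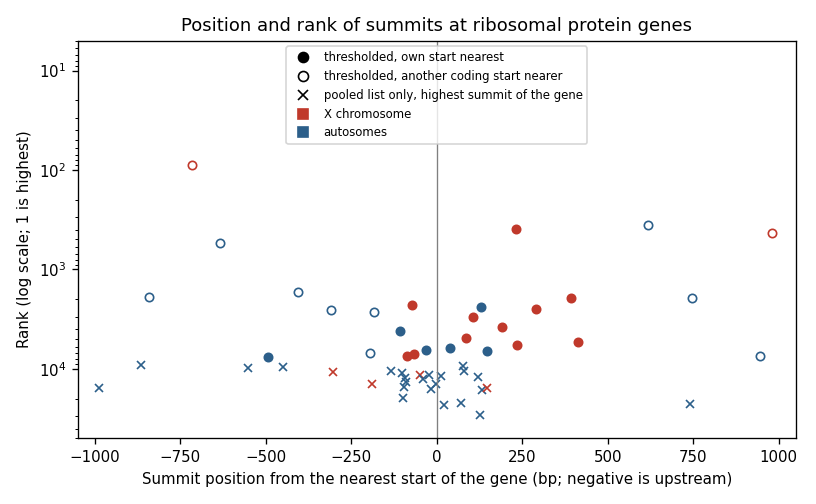
Each circle is 1 of 28 summits, placed by its distance in bp from the nearest start of the ribosomal protein gene and by its rank on a log axis, with filled circles where that start is nearest and open circles where another coding start is nearer. Filled circles cluster within 500 bp of the start, and crosses, the highest summits of 27 genes found in the pooled list only, lie at ranks from 9205 to 29222.

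The highest summit of the set was counted for RpS19a, which encodes a protein of the small-subunit head. It ranked 89 in the thresholded list, at 16637178 on X. Its ranks in replicates 1, 2 and 3 were 94, 75 and 101 (mean 90.0 ± 13.5, SD, n = 3). This summit lay 716 bp upstream of RpS19a, and 236 bp inside Rok, which encodes a kinase of the actomyosin cytoskeleton and is transcribed in the opposite direction. A second summit, 72 bp upstream of a start of RpS19a and in the 5′ UTR of another of its transcripts, ranked 2289 (replicates 2348, 2173 and 2663). Both positions recurred in every replicate, with the one at Rok far above the one at RpS19a.

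RpS5a was the only member with a summit among the 1000 highest that lay nearest to its own start. The summit ranked 389, at 17148033 on X, 231 bp downstream of the start (replicates 381, 468 and 373). RpS5a encodes a small-subunit head protein. Its 10-base run, printed above, was centred 30 bp from the summit. The 3 replicate ranks were close, and the nearest other coding start, that of Chchd2, lay 968 bp away.

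RpS14a and RpS14b, tandem copies that encode the same small-subunit protein family, differed in their counts but cannot be well separated. RpS14b had a summit of rank 7158 located 66 bp upstream of its start (replicates 7493, 8931 and 7068), while RpS14a had none within 1 kb and had that same summit 1090 bp away. Within 500 bp of their outermost starts the copies have an identical stretch of 122 bases. How the authors placed reads that match both is not known here, and the separate values of the copies are uncertain. RpS14b was also counted for a summit of rank 428, which lay 980 bp downstream of its second start and 256 bp inside Ubr3, a ubiquitin ligase gene. Without both copies, 8 of 12 X members had a peak, and in all 8 the own start was nearest to a summit.

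Another 3 small-subunit genes on X had a summit nearest to their own start. RpS15Aa had one in an intron, 412 bp downstream of a start, with rank 5332 (replicates 4818, 7196 and 6292). RpS28b had one in its coding exon, 236 bp downstream, with rank 5745 (replicates 6212, 5476 and 6384). RpS10b had one 86 bp upstream, with rank 7514 (replicates 8077, 7480 and 7750). No other coding start lay within 1 kb of these 3 summits. The RpS10b and RpS28b windows printed above contain no GTGTGT, and a run of 7 bases lay near the RpS15Aa summit.

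Large-subunit genes on X carried their summits inside the transcribed region. RpL17 had summits at 394 bp and 191 bp downstream of a start, with ranks 1962 and 3791. The replicate ranks were 1956, 2357 and 2056 for the first and 3754, 4824 and 3921 for the second. The first lay beside the 16-base run, the longest near any member's summit, and the run was centred 41 bp away. RpL7A had summits in an intron at 291 bp and 86 bp, with ranks 2526 (replicates 2742, 3215 and 2313) and 4859 (replicates 4825, 7119 and 3993). RpL36 had a summit 106 bp downstream, in its 5′ UTR, with rank 3046 (replicates 3295, 3822 and 2816). It lay 463 bp upstream of Mybbp1A, which is transcribed in the opposite direction. In all 3 genes the stronger summit had GTGTGT within 100 bp.

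**Figure D3:**
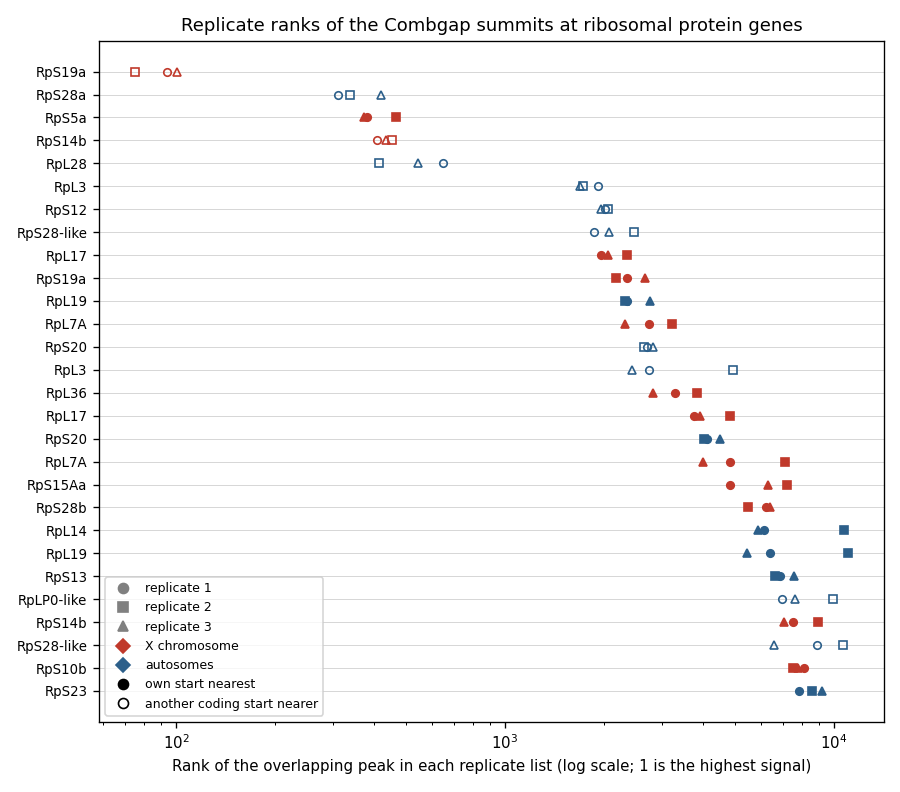
For 28 of the 29 summits, ordered by thresholded rank from the top, the 3 symbols give the rank of the overlapping peak in each replicate list on a log axis, with filled symbols where the own start is nearest. The top summit, at RpS19a, had ranks of 75 to 101, while the summits of RpL14 and RpL19 near the bottom had ranks of 10708 and 11037 in replicate 2 and of 5441 to 6410 in the other two.

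On autosomes, 5 genes had a summit nearest to their own start. RpL19, on 2R, had a summit of rank 2364 in an intron 130 bp downstream of a start (replicates 2349, 2323 and 2764) with a 14-base GT run within 100 bp. A second summit 32 bp upstream of its start ranked 6417 (replicates 6410, 11037 and 5441). RpS20 had a summit of rank 4153 located 108 bp upstream (replicates 4118, 4018 and 4512), between its start and that of the divergent gene CG17271. The higher RpS20 summit, of rank 2593, lay 23 bp from CG17271. RpL14 had a summit of rank 6244 at 40 bp (replicates 6110, 10708 and 5864), RpS13 one of rank 6672 at 146 bp (replicates 6846, 6629 and 7572) and RpS23 one of rank 7585 at 494 bp upstream (replicates 7804, 8559 and 9189). RpL14 and RpS13 are divergent neighbours of Nelf-E, which encodes a subunit of the negative elongation factor, and of CSN8, a COP9 signalosome gene. The RpL14 summit and the second RpL19 summit were ranked lower by replicate 2 than by the other two replicates. So were summits elsewhere in the set, such as those of RpL3 (rank 2669), RpL7A (rank 4859) and RpLP0-like (rank 7011). This did not hold for all, and the RpS13 and RpS28b summits were ranked highest by replicate 2.

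The other 7 autosomal genes were counted only for summits nearer to another gene, and 6 of them are described. RpS28a was 617 bp from a summit of rank 354 (replicates 310, 337 and 419) that lay 190 bp inside Mgat2, a gene for N-glycan synthesis, and 811 bp upstream of Axn, which encodes the Wnt pathway scaffold Axin. RpL28 was 634 bp from a summit of rank 549 (replicates 647, 414 and 543) that lay 253 bp inside eIF1, a translation initiation factor gene. RpS28-like was 746 bp and 947 bp from summits of rank 1940 and 7454 in the 5′ UTR of numb, the Notch inhibitor and cell fate gene. Thus the strongest autosomal summits of the set belonged by distance to genes outside it. RpL3 was 407 bp and 184 bp from summits of rank 1699 and 2669 at CG6693. RpS12 was 843 bp from a summit of rank 1891 in the 5′ UTR of Adk2, an adenylate kinase gene. RpLP0-like was 194 bp from a summit of rank 7011 that lay 107 bp inside 14-3-3zeta, a signalling adaptor gene. For RpL3, RpL28, RpS12 and RpLP0-like the neighbour is transcribed in the opposite direction, and for RpS28a with Mgat2 and RpS28-like with numb in the same direction.

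**Figure D4:**
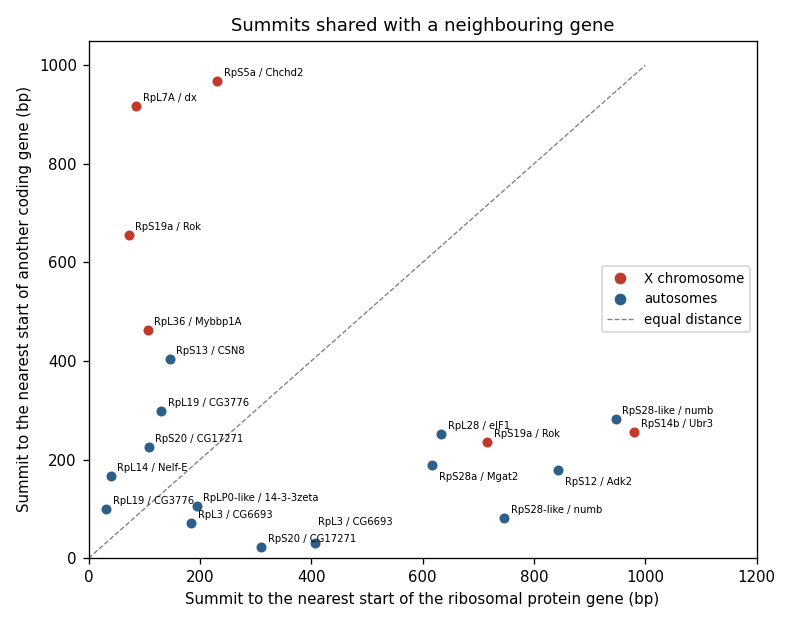
Each point is 1 of 20 summits with another coding start within 1 kb, placed by its distance in bp from the ribosomal protein gene and from the nearest other coding gene, both named. Points below the dashed line of equal distance lie nearer to the other gene, and the 7 points beyond 500 bp on the horizontal axis are all below it.

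By rank the summits were near the middle of start-site summits. The median rank was 3046 over the 29 summits and 3118 over the 4182 thresholded summits within 1 kb of any coding start. It was 4859 for the 17 summits nearest to an own start and 1916 for the 12 nearer to another gene. Of the 5 summits among the 1000 highest, 1 lay nearest to its own start. Over the replicate lists the median rank of the 29 was 3376 ± 605 (SD, n = 3).

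Members with a long GT run within 1 kb of a start often had a peak, as did other genes. Of the 15 members with a run of 10 bases or more within 1 kb of a start, 11 had a peak (73.3%), against 69.1% of all protein-coding genes with such a run. Of the 77 members with shorter runs 10 had a peak (13.0%), against 13.2% of such genes. A run within 1 kb of a start need not lie at the summit. Of the 11 members, RpS10b and RpL3 had at most 5 bases within 100 bp of a summit, and RpS15Aa had 7. The rest of the 11 had a run of 10 bases or more there. RpL3, RpL28, RpS28a and RpS28-like, also among the 11, were counted only for summits nearer to another gene. The longest run within 1 kb had a median of 7.0 bases over the members and over all coding genes. It had a median of 11 bases at the 21 members with a peak and 6.0 at the 71 without. On X all 6 members with a long run had a peak, against 71.0% of X genes with one, and 3 of 8 without a long run did (37.5%, against 15.4%). On autosomes these counts were 5 of 9 (55.6%, against 68.5%) and 7 of 69 (10.1%, against 12.9%). Of those 5 autosomal members only RpL19 had a summit nearest to its own start. The members with a long run and no peak were RpL37-2, with a run of 23 bases, RpS5b with 12, RpS27A with 11 and RpS16 with 10.

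**Figure D5:**
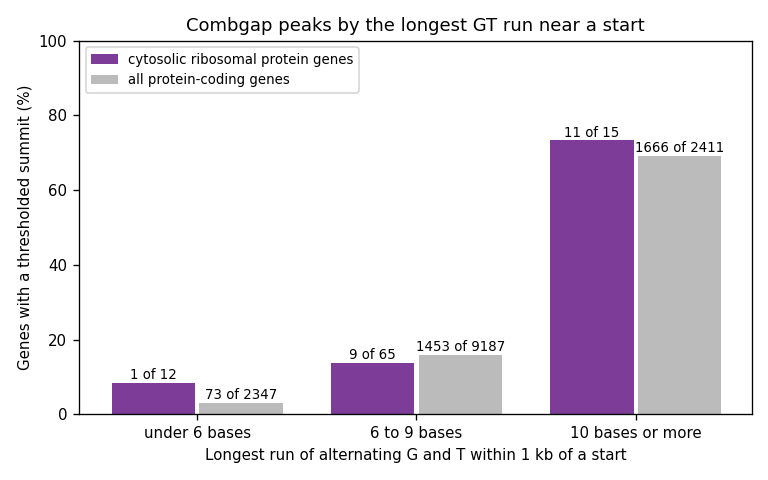
Bars give the percentage of genes with a thresholded summit, by the longest run of alternating G and T within 1 kb of a start, for cytosolic ribosomal protein genes and all protein-coding genes, with counts above. In the class of 10 bases or more both bars exceed 69%, at 73.3% and 69.1%, while at 6 to 9 bases they stand at 13.8% and 15.8%.

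At the summits themselves, GTGTGT lay within 100 bp at 15 of 29 (51.7%), against 59.7% of start-site summits of all coding genes and 63.3% of all 7913 thresholded summits. It was found at 8 of the 17 summits nearest to an own start and at 7 of the 12 nearer to another gene. Runs of 10 bases or more lay within 100 bp at 10 of the 29 (34.5%), against 28.4% of start-site summits. Those 10 had a median rank of 1244 and the other 19 one of 5745. For all start-site summits these medians were 2000 and 3586. A run of 6 bases that begins with T holds no GTGTGT, as at the second RpL7A summit.

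Pyrimidine-rich letters near the start were counted next. The letters CTTT began within 10 bases of an annotated start, on the sense strand, at 76 of 92 members (82.6%), against 14.9% of all coding genes. Counted by start site they were at 88 of 155 (56.8%), against 11.3% of the start sites of all coding genes. This window was widened from 2 to 10 bases after its values were seen, and a match in it does not place the initiator. The letters are shown for 3 members with a peak and for 2 without, in dm6 reference windows of 30 bases around the annotated start, with the CTTT nearest to it in capitals.
RpL14 at chr3L:8600991-8601020, plus strand: ctgtcaaaaaagttCTTTccttctctttct
RpS13 at chr2L:8364582-8364611, minus strand: gccaaaagtctccaccttCTTTtcggtgtc
RpS5a at chrX:17148250-17148279, minus strand: cacactgccgtaacatgttCTTTttcaggc
RpS3 at chr3R:23358797-23358826, plus strand: gcgcgggcacactggcctCTTTcttttctg
RpLP0 at chr3L:22076077-22076106, plus strand: tgccgccgccaacttcactCTTTccgttct
RpL14, RpS13 and RpS5a have peaks, and RpS3 and RpLP0, which encodes the base protein of the stalk, have none. Among members with these letters 15 of 76 had a peak (19.7%), and among those without them 6 of 16 did (37.5%). For all coding genes the shares were 31.9% and 21.3%. Of the members without the letters, RpS12, RpS28a, RpS28-like and RpLP0-like were counted only for summits nearer to another gene. Members with the letters that were so counted included RpL3 and RpL28. The shares above therefore do not describe peaks nearest to an own start.

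Other promoter letters were counted on both strands from 250 bp upstream to 50 bp downstream of each start. The DRE lay in at least 1 window of 28 of 92 members (30.4%), against 10.2% of all coding genes, with 7 of 21 among members with a peak and 21 of 71 among the rest. GTGTGT was in windows of 20 members (21.7%), the same share as among all coding genes (21.7%), and of only 4 of the 21 members with a peak. GAGAG, the core of the element bound by GAGA factor, was in windows of 19 members (20.7%), against 36.4% of all coding genes. The count was 7 of 21 among members with a peak (33.3%) and 12 of 71 among the rest (16.9%). GAGAG lay within 100 bp of 5 of the 29 summits (17.2%), against 42.0% of start-site summits. The DRE lay within 100 bp of 2 of the 29 (6.90%), against 1.72% of start-site summits. These were the RpS10b summit and the second RpL19 summit. These matches describe letters and do not show that a factor is bound.

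The pooled list, called on all alignments together, extended the set. Every thresholded summit was a row of it, and the thresholded list held exactly its 7913 highest rows of 30000. A pooled summit lay within 1 kb of a start at 49 of 92 members (53.3%), against 42.7% of all coding genes. On X it did at 13 of 14, all but RpL35, against 63.4% of X genes, and on autosomes at 36 of 78 (46.2%), against 38.8%. A pooled summit alone was found at 28 members, of which 27 are named: RpL6, RpL8, RpL10Ab, RpL11, RpL12, RpL13A, RpL22, RpL23, RpL27, RpL29, RpL30, RpL31, RpL34a, RpL34b, RpL37-1, RpL37A, RpL41, RpLP2, RpS3A, RpS4, RpS5b, RpS6, RpS14a, RpS19b, RpS25, RpS29 and RpS30. The highest summits of these 27 ranked 9205 (RpL10Ab) to 29222 (RpL37A), and the summit of lowest rank among the called members was that of RpS23 at 7585. Of the highest summits of all 28 members, 22 lay within 250 bp of a start (78.6%), against 60.7% for all genes found in the pooled list alone.

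No summit of either list lay within 1 kb of a start at 43 members (46.7%), of which RpL10, RpL10Aa, RpL13 and RpL15 are the first by symbol. The replicate lists, of 30000 peaks each, had a summit within 1 kb at 54, 51 and 51 members in replicates 1, 2 and 3 (58.7%, 55.4% and 55.4%). For all coding genes these shares were 43.0%, 43.3% and 43.2%. All 3 lists had one at 45 members (48.9%), against 37.0% of all coding genes, and none of the 3 had one at 33 (35.9%), against 50.5%. The lists are of equal length and read depth is unknown, so a missing summit does not show that a gene is unbound.

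At 4 pairs of paralogues the copy on X had a peak and the autosomal copy had none. These X copies are among the 9 of 14 X members counted above, so the pairs are not a separate count. RpS5a, RpS10b, RpS15Aa and RpS19a on X had a peak nearest to their own start, while RpS5b, RpS10a, RpS15Ab and RpS19b on autosomes had no thresholded peak. In the pooled list RpS5b had a summit of rank 15597 at -987 bp from its start and RpS19b one of rank 9783 at -552 bp, both upstream, and RpS10a and RpS15Ab had none. RpS28b on X had its own summit, and the autosomal RpS28a and RpS28-like were counted for those at Mgat2 and numb. RpLP0 and RpLP0-like, both autosomal, also differed. RpLP0-like was counted for the summit at 14-3-3zeta (rank 7011), and RpLP0 had none in either list. The pairs RpL22 and RpL22-like, RpL37-1 and RpL37-2, RpL10Aa and RpL10Ab, RpL34a and RpL34b, RpL24 and RpL24-like and RpL7 and RpL7-like had no thresholded peak at either copy. Apart from the RpS14 pair, the longest stretch of bases shared by the start regions of a pair was 26, at RpS10a and RpS10b.

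Other genes of the pathway were counted in the same way, and their shares stand beside 22.9% for all protein-coding genes. Translation factor genes had peaks at 17 of 39 (43.6%), led by the initiation factor gene eIF4H1 at rank 52, pAbp, which encodes the poly(A)-binding protein, at rank 451, and eIF1 at rank 549. The pAbp summit lay 556 bp downstream of a start, and the eIF1 summit is the one also counted for RpL28. Ribosome biogenesis genes had them at 10 of 36 (27.8%), led by Polr1D, a subunit gene of RNA polymerases I and III, at rank 301, the snoRNP gene nop5 at rank 378 and Mat89Ba at rank 400. The nop5 and Mat89Ba summits lay 683 bp and 810 bp upstream of those genes, with x16 and gish as the nearest other coding genes. Regulators of growth and of ribosomal protein genes had peaks at 10 of 19 (52.6%). These were led by larp, which encodes a protein that binds mRNAs of ribosomal proteins, at rank 338, Trf2 at rank 375 and the ribosomal protein S6 kinase gene S6k at rank 530. The Trf2 summit lay 738 bp downstream of a start, with lawc as the nearest other coding gene. Of the ribosomal protein genes outside the symbol rule, sta, which encodes RpSA, and Rack1 had no thresholded peak, and their highest pooled summits ranked 11047 and 17892. These lists were put together with earlier results of these data known, were not matched for starts per gene and were not tested.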

How the data were processed

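Combgap peaks came from 5 deposited lists on dm6. Each replicate had its own list, a pooled list used all 3, and a thresholded list had passed an IDR filter, all made against 1 shared control alignment, per the text listings beside the files. Fragments were 200 to 800 bp, per the labels. Not given in the sources used here were the aligner, the caller and the IDR threshold. Peak signal was deposited by the authors as the caller gave it; its scale differs between lists, so only ranks within a list were used. The −log10 q values deposited by the authors were at most 4.35 in the thresholded list and were not used for ranking. Read depth is unknown.

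Genes and starts came from Ensembl release 115 (BDGP 6.54), and sequence from the RefSeq copy of the same assembly. Ranks in a replicate are those of the overlapping peak with the nearest summit. Coordinates count from 1. A GT run is the longest stretch of alternating G and T on either strand. Python 3.11.15, numpy 2.4.6 and matplotlib 3.10.9 were used, and the functions were checked on planted summits and runs. With 1 group, no statistical test was made, and most shares stand beside the same share over all coding genes. Members, lists and the rule for named genes (members with a peak, their neighbours and paralogues, and the 3 highest of each list) were chosen with earlier results of these data known. Results of 2 members are not reported here by gene. Of 95 listed symbols, 94 were found in the annotation.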

Additional observations from a re-analysis of the deposited data

How the results depend on the processing

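The count of 21 members with a peak was 14, 16 and 28 at distances of 250, 500 and 2000 bp, and 51 at 5000 bp. It was 49 in the pooled list, 13 in the highest 50% of thresholded peaks and 13 where a peak interval had to overlap a start. The 21 summits with another coding start within 1 kb became 10 at 500 bp for both distances. The 13 members found in the 5000 highest peaks of every replicate became 20 with the 10000 highest. The median rank of 3046 became 4153 at 500 bp, a shift above its replicate SD of 605. The 12 autosomal members became 7 at 500 bp, 7 in the highest 50% of peaks, 36 in the pooled list and 7 in the 5000 highest of every replicate list, with 7 to 7 when a replicate was left out. The 9 members on X ranged from 6 to 13 under the same settings, which were chosen after the data were seen. Shorter distances and fewer peaks lower such counts by construction. Without the -like genes the 21 became 19 and without RpS14a and RpS14b 20, also chosen after the data were seen. The other alternatives moved a count by at most 1.5 times. No paired analysis was possible because the labels give 1 group. Read depth, which would set the limit of detection, is unknown.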

Other observations

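Members that host snoRNAs in their introns, a common arrangement in ribosomal protein genes, were counted: 8 of the 21 members with a peak (38.1%) and 20 of the 71 without (28.2%) host at least 1. No share over all coding genes stands beside these counts, and a link to the peaks was not tested. The 8 include RpL3, RpL28 and RpS12, which were counted only for summits nearer to another gene. Another coding gene starts within 1 kb of 18 of the 21 members with a peak (85.7%) and of 40 of the 71 without (56.3%). Read the other way, a peak was present at 18 of 58 members with such a neighbour (31.0%) and at 3 of 34 without (8.82%), against 29.7% and 17.8% of all coding genes. The 3 members with a peak and no such neighbour were RpL17, RpS10b and RpS23. Of the 18 with such a neighbour, 11 had their own start nearest to at least 1 summit (61.1%, against 64.5% of all such genes). The rest of the 18 were counted only for summits nearer to another gene, so summits of neighbours add to this share. Members with a single start had a peak in 9 of 48 cases (18.8%) and those with more starts in 12 of 44 (27.3%), against 15.0% and 44.8% of all coding genes.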
